A study of Mus musculus with 8 samples.

Results

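The CXC chemokines described here are 10 ligand genes, Cxcl1, Cxcl2, Cxcl3, Cxcl5, Ppbp, Pf4, Cxcl9, Cxcl10, Cxcl14 and Cxcl16, out of 55421 gene identifiers in an RNA sequencing table of mouse macrophages. They were chosen by symbol as ligands of the CXC family, and the family was taken up because Cxcl2 and Cxcl1 were already known to be lower in these knockout libraries. The direction of those genes is therefore how the family was found, and all knockout against wild-type values of the members are given as a description. The cells are primary bone marrow derived macrophages (BMDM) from the marrow of C57 mice and collected at day 7 of differentiation. The WT group has 4 libraries and the Baf60a KO group has 4, and no stimulus other than BMDM differentiation is given for either group. Baf60a is the protein encoded by Smarcd1, a subunit of SWI/SNF (BAF) chromatin remodelling complexes. The deleted part of the gene, the Cre or other means of deletion, the age of the mice, and whether each library had its own mouse are points on which the sources used here say nothing. P-values therefore measure only the spread between these libraries, which may be technical.

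CXC chemokines are small secreted proteins, named for a pair of cysteines with a single residue between them, that steer leukocytes through G protein-coupled receptors. Those with a Glu-Leu-Arg motif before the cysteines (Cxcl1, Cxcl2, Cxcl3, Cxcl5 and the processed form of Ppbp) act on Cxcr2 and draw neutrophils, while Cxcl9 and Cxcl10 act on Cxcr3 and draw activated T cells and NK cells. In macrophages, Cxcl1 and Cxcl2 are early targets of NF-kappaB after Toll-like receptor or cytokine signals, Cxcl9 and Cxcl10 are induced by interferons, and Cxcl16 is made as a membrane-bound protein.

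The coordinates are on build mm10. On chromosome 5, Cxcl5 (90759360 to 90761624), Ppbp (90768518 to 90770063), Pf4 (90772435 to 90773383), Cxcl3 (90786103 to 90789600), Cxcl1 (90891241 to 90893115) and Cxcl2 (90903871 to 90905938) lie in this order on the plus strand. Cxcl15 (90794534 to 90803067), a CXC ligand that is not one of the members, lies between Cxcl3 and Cxcl1. Cxcl9 (92321347 to 92328079) and Cxcl10 (92346638 to 92348889) lie further along chromosome 5 on the minus strand. Cxcl14 is on chromosome 13 (56288643 to 56296551) and Cxcl16 on chromosome 11 (70453983 to 70459984), both on the minus strand.

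The promoters of Cxcl1, Cxcl2 and Cxcl3 are shown because they share a stretch of identical letters although the RNA levels of the genes differ widely, and that of Cxcl10 is shown as the member with the most NF-kappaB matches. They are RefSeq sequences on build GRCm38.p6, read 5′ to 3′ on the strand of the gene, with capitals marking the matches described after them. A match of letters is a description and not a measured binding site.
Cxcl1, chr5:90891125-90891244, plus strand: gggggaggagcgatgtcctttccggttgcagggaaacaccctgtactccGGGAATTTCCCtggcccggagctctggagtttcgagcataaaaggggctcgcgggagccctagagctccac
Cxcl2, chr5:90903779-90903898, plus strand: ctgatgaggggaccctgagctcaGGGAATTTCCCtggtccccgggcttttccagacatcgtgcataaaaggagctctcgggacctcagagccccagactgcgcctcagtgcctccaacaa
Cxcl3, chr5:90785981-90786100, plus strand: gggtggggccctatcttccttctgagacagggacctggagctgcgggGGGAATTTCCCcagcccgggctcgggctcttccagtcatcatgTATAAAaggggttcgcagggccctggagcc
Cxcl10, chr5:92348890-92349109, minus strand: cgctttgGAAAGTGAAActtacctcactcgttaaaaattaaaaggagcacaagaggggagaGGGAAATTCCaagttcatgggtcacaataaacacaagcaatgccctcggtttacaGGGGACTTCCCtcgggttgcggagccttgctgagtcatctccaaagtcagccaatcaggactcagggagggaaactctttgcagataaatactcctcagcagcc

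RefSeq promoters, each running from 250 bases before to 50 after the start, were at hand for 8 of the 10 members and were searched on both strands. The word GGGAATTTCC, the form of the NF-kappaB site in the capitals of Cxcl1, Cxcl2 and Cxcl3, is present in 29 of 32851 promoters, or 0.0883%. Its positions relative to the RefSeq start are -71 to -62 in Cxcl1, -97 to -88 in Cxcl2 and -73 to -64 in Cxcl3. The RefSeq stretch shown for Cxcl2 ends at 90903898, beyond the gene start of 90903871 given above. The position in Cxcl2 would therefore be closer to the start if counted from that gene start. The general NF-kappaB consensus, which 8.46% of promoters hold, matches each of these stretches at adjacent, overlapping positions. Cxcl10 has 3 matches to that consensus, from -159 to -150, -104 to -95 and -103 to -94, of which the last pair overlap. Cxcl10 also has the interferon response word, GAAA then NN then GAAA, which 3.44% of promoters hold, at -213 to -204. The TATA word TATAAA, held by 13.6% of promoters, occurs at -30 to -25 in Cxcl3 and Ppbp. It is also at -8 to -3 in Ppbp and at -195 to -190 in Cxcl9. Cxcl1 and Cxcl2 have no exact match in their windows, but the stretches shown hold cataaa, which differs in its first letter.

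The target gene Smarcd1 was lower in all 4 KO libraries, at 10.5 ± 0.447 TPM (transcript abundance per length; mean and SD, n = 4), than in WT at 14.8 ± 0.998. The difference in log2(TPM + 1) was -0.47 (SE 0.061; adjusted p = 0.00756 in limma), so most of its RNA was still measured in the libraries labelled Baf60a KO. TPM is corrected for transcript length and scaled to a total of 1000000 in every library, so levels of different genes can be set side by side but the read depth of a library is unknown. Between 13727 and 14027 genes exceeded 1 TPM per library. Processed pseudogenes held 12.4% and 12.65% of TPM in WT replicates 3 and 4 against 7.05% to 8.72% in the other libraries. Calls of named genes that were lost or gained without that pair are given beside their values.

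Genes were tested with limma on log2(TPM + 1) where TPM exceeded 1 in at least 4 libraries, which left 13933 genes, and "rose" and "fell" are used only of genes with an adjusted p under 0.05. Of the members, 7 were tested. Cxcl2 and Cxcl1 fell, 0 rose and 5 did not pass. Over all genes tested 1.21% fell and 4.4% rose, and without WT replicates 3 and 4 these shares were 1.21% and 1.32%. That Cxcl2 and Cxcl1 are among those that fell was used to choose the family, so nothing is read from the count. At an unadjusted p under 0.05 in limma there were 4 members lower and 0 higher, beside 6.42% and 15.9% of all genes tested. The median log2 fold change was -0.50 over the 7 tested members and -0.08 over all 10, against 0.03 over all genes tested. The groups did not overlap, with KO lower, for 3 members (Cxcl1, Cxcl2 and Pf4), a pattern found in 3.96% of all genes tested. These counts and medians include Cxcl2 and Cxcl1 as well, so nothing is read from them either. Of the members next to the threshold, Cxcl1 was inside at an adjusted p of 0.0187 and Pf4 outside at 0.0824 in limma.

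**Figure D1:**
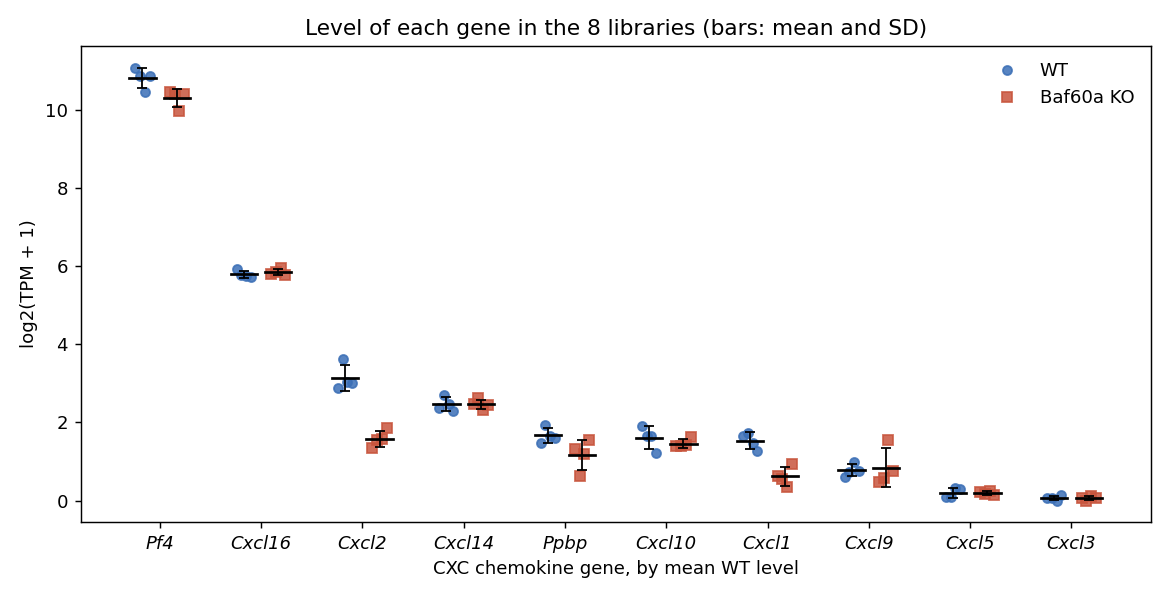
Level of each CXC chemokine gene as log2(TPM + 1), with 1 point per library, circles for WT and squares for Baf60a KO, and bars for the mean and SD of 4 libraries. Pf4 is highest and Cxcl3 lowest in both groups, and the gap between groups is widest for Cxcl2.

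Cxcl2 (macrophage inflammatory protein 2, a Cxcr2 ligand) was the most abundant of the neutrophil-attracting ligands in WT and the member with the largest difference. It measured 6.33, 11.26, 7.15 and 7.02 TPM in WT replicates 1 to 4, and 1.55, 1.94, 1.97 and 2.62 TPM in KO replicates 1 to 4. The highest KO library was below the lowest WT library, and WT replicate 2 stood above the other WT libraries. The group means were 7.94 ± 2.24 and 2.02 ± 0.443 TPM (SD, n = 4), a level 3.93 times as high in WT as in KO. The difference on the log2(TPM + 1) scale, which understates changes of low genes, was -1.55 (SE 0.171). It was -1.385 without WT replicate 2. Among all called genes, 2 had a fold change at least as far below 0 as that of Cxcl2, itself included.

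Cxcl1 (KC, also a Cxcr2 ligand) was at a lower level than Cxcl2. It measured 2.17, 2.33, 1.77 and 1.42 TPM in WT and 0.55, 0.47, 0.27 and 0.92 TPM in KO, in replicate order. The groups did not overlap, all 4 KO libraries were under 1 TPM, and the gene was therefore tested through its WT libraries alone. Means were 1.92 ± 0.410 and 0.553 ± 0.272 TPM (SD, n = 4), or 3.48 times as high in WT. The difference was -0.92 (SE 0.155) with a pseudocount of 1 and -1.70 with a pseudocount of 0.1. In limma its adjusted p was 0.0516, 0.0576 and 0.0501 without KO replicate 1, 2 or 3, each of which ends the call. Cxcl2 exceeded Cxcl1 in every library, with a ratio of TPM of 2.92 to 4.94 in WT and 2.82 to 7.3 in KO, ranges that overlap.

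**Figure D2:**
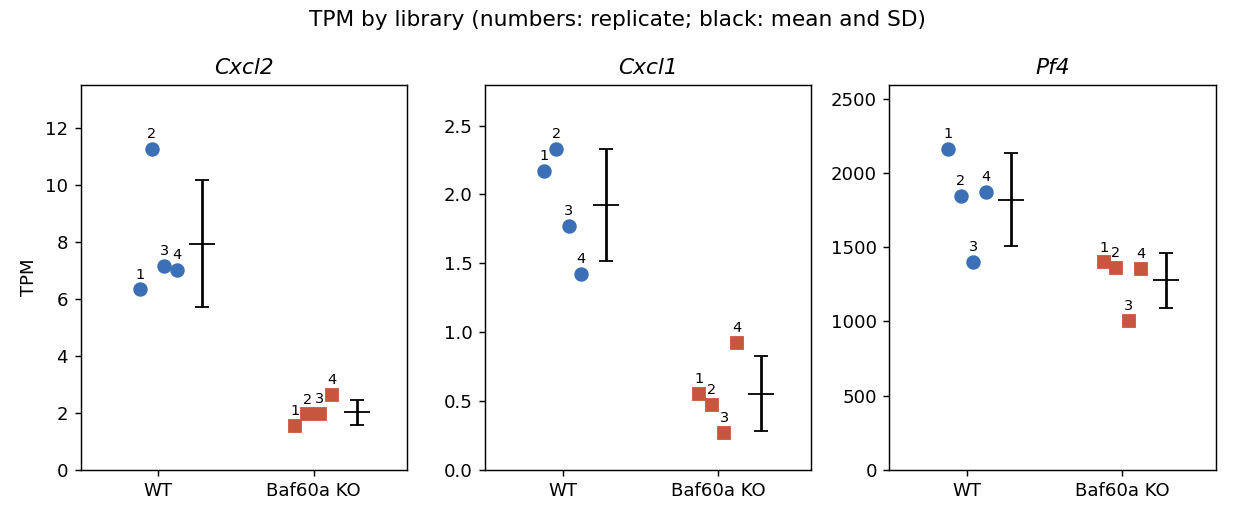
TPM of Cxcl2, Cxcl1 and Pf4 in each library, numbered by replicate within WT (circles) and Baf60a KO (squares), with the mean and SD of 4 libraries in black and each vertical axis starting at 0. No KO point reaches the lowest WT point in any panel, but for Pf4 the nearest points, 1399.59 in WT replicate 3 and 1398.39 in KO replicate 1, nearly touch.

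Cxcl3 and Cxcl5, which are also Cxcr2 ligands of the cluster, were near 0 in both groups. Cxcl3 measured 0.04, 0.05, 0 and 0.1 TPM in WT and 0.05, 0, 0.09 and 0.05 TPM in KO. Cxcl5 measured 0.07, 0.06, 0.24 and 0.22 TPM in WT and 0.17, 0.12, 0.19 and 0.11 TPM in KO. Both were below the level needed for testing, and their groups overlapped. Cxcl3 had the same promoter word as Cxcl2, while its level was near 0 in every library.

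The transcripts of these genes resemble each other, which bears on how reads are divided among them. In a BLAST alignment, Cxcl2 and Cxcl3 were 90.1% identical over 354 bases, Cxcl1 and Cxcl2 78.1% over 347 bases, and Cxcl1 and Cxcl3 76.1% over 330 bases. No library had Cxcl3 above 0.1 TPM, so any sharing of reads between Cxcl2 and Cxcl3 left little at Cxcl3, and the division between Cxcl1 and Cxcl2 was not tested.

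Ppbp (pro-platelet basic protein, a platelet granule precursor whose cleavage gives a Cxcr2 ligand) measured 1.80, 2.84, 2.12 and 2.06 TPM in WT and 1.49, 0.55, 1.29 and 1.91 TPM in KO. The mean was lower in KO, at 1.31 ± 0.569 against 2.21 ± 0.446 TPM (SD, n = 4), but KO replicate 4 was above WT replicate 1. The difference of -0.50 (SE 0.193) did not pass the test.

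Pf4 (platelet factor 4, the heparin-binding chemokine of platelet granules, also made by some macrophages) was by far the most abundant member. It measured 2162.63, 1848.39, 1399.59 and 1875.91 TPM in WT and 1398.39, 1360.36, 1002.44 and 1355.53 TPM in KO. Replicate 3 was lowest in each group, and the groups were separate only by the narrow gap between WT replicate 3 and KO replicate 1. Means were 1822 ± 315 and 1279 ± 185 TPM (SD, n = 4), so the KO mean was 0.702 times the WT mean. The difference of -0.51 (SE 0.147) did not pass, and in limma it passed at an adjusted p of 0.0382 without WT replicate 3. Pf4 made up 93.3% to 96.5% of the summed TPM of the 10 genes, so that sum, 1471 to 2240 TPM in WT and 1075 to 1463 TPM in KO, is in effect the level of Pf4. Without Pf4 and Cxcl16 the sum was 16.8 to 24.9 TPM in WT and 10.3 to 12.8 TPM in KO.

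Cxcl9 and Cxcl10, the interferon-induced ligands of Cxcr3, showed no shift beyond their spread. Cxcl10 (IP-10) measured 2.75, 2.17, 2.16 and 1.31 TPM in WT and 1.64, 1.62, 1.67 and 2.07 TPM in KO. Its WT range enclosed the KO range, and the difference of -0.15 (SE 0.147) did not pass. Cxcl9 measured 0.53, 0.66, 0.97 and 0.70 TPM in WT and 0.38, 0.48, 1.95 and 0.69 TPM in KO. It was below the level for testing, and KO replicate 3 was the highest library while KO replicate 1 was the lowest. On the plus strand Art3 overlaps Cxcl10, and it measured 0.3 to 1.0 TPM in WT and 0.53 to 1.14 TPM in KO. The sources used here do not say whether strand was used in counting, so reads of Art3 and Cxcl10 over the shared stretch may not be told apart.

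Cxcl14 (BRAK, a ligand with roles in skin and other epithelia) measured 4.20, 5.52, 4.55 and 3.94 TPM in WT and 4.51, 5.15, 3.98 and 4.43 TPM in KO. The means were 4.55 ± 0.692 and 4.52 ± 0.482 TPM (SD, n = 4), and the difference was -0.01 (SE 0.104). Cxcl16, the membrane-bound ligand of Cxcr6 that also takes up oxidised lipoproteins, measured 59.83, 53.25, 52.39 and 51.46 TPM in WT and 54.39, 56.49, 60.89 and 54.04 TPM in KO. The means were 54.2 ± 3.803 and 56.5 ± 3.15 TPM (SD, n = 4), and the difference was 0.06 (SE 0.061). Both genes had overlapping groups and the smallest standard errors of the tested members. Zmynd15, whose start overlaps that of Cxcl16 on the other strand, stayed at 0.29 to 0.70 TPM in all libraries.

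In WT the order of mean levels was Pf4, Cxcl16, Cxcl2, Cxcl14, Ppbp, Cxcl10, Cxcl1, Cxcl9, Cxcl5 and Cxcl3. The values of neighbours in this order were apart except for Ppbp with Cxcl10, Cxcl10 with Cxcl1, and Cxcl5 with Cxcl3. In KO, Cxcl2 stood after Cxcl14 instead of before it, and Cxcl2, Cxcl10, Ppbp, Cxcl9 and Cxcl1 followed each other with overlapping values. The values of Cxcl2 were thus apart from those of Cxcl10 and Ppbp in WT and overlapped them in KO.

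The 3′ UTR of a chemokine mRNA often carries ATTTA pentamers (AUUUA in RNA), to which decay factors such as tristetraprolin (Zfp36) bind. The longest annotated 3′ UTR of Cxcl1 had 7 copies in 592 bases (11.8 per kb), and 0.463% of tested genes with a 3′ UTR were as dense. Cxcl2 had 11 copies in 1494 bases (7.36 per kb), a density reached by 2.11% of those genes. Cxcl3 had 5 copies in 645 bases (7.75 per kb), reached by 1.69%. The Cxcl2 stretch is longer than the whole 1109-base Cxcl2 transcript used in the BLAST alignment, so it comes from another annotated transcript. Which transcript of Cxcl2 these cells make was not tested. The median over 11658 tested genes was 1.34 per kb. Cxcl5 had 4.5 per kb and Cxcl10 had 3.01. Cxcl9, Cxcl16 and Ppbp were at 1.22, 1.41 and 1.52 per kb, and Cxcl14 had 0 copies. The density of 8.13 per kb for Pf4 comes from 1 copy in a UTR of 123 bases.

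Of 13 other protein-coding genes that start within 500 kb of the main cluster, 3 were tested with limma and 0 were called, with 0 at an unadjusted p under 0.05. The difference was -0.03 for Ankrd17, 0.21 for Afp and 0.09 for Mthfd2l (adjusted p 0.827, 0.263 and 0.633). Mthfd2l is the tested gene nearest to Cxcl2. Of 16 genes near Cxcl9 and Cxcl10, 9 were tested and 0 called, with 2 at an unadjusted p under 0.05. Over all genes tested 5.61% were called in either direction, and 2.53% without WT replicates 3 and 4. At an unadjusted p under 0.05 in limma, 15.9% were higher and 6.42% lower in KO.

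**Figure D3:**
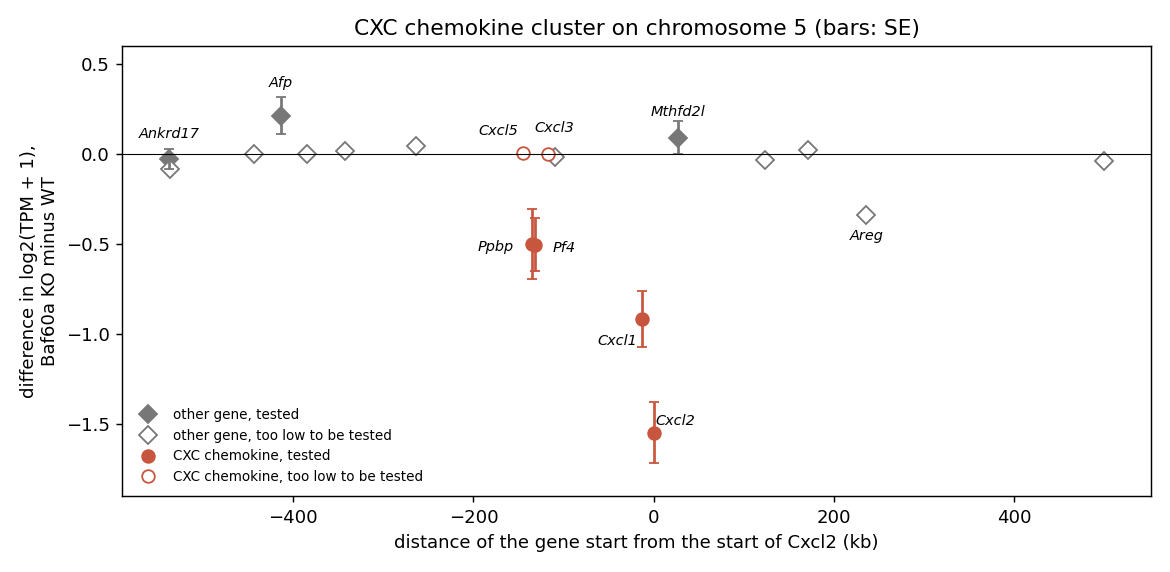
Difference in log2(TPM + 1), Baf60a KO minus WT, against the distance of each gene start from the start of Cxcl2 in kb, for the CXC chemokines of the main cluster (circles) and other protein-coding genes within 500 kb of it (diamonds), with SE bars on tested genes and open symbols for genes too low to be tested. Cxcl2 at -1.55 and Cxcl1 at -0.92 lie furthest below 0, while Ankrd17, Afp and Mthfd2l lie between -0.03 and 0.21.

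Near Cxcl14, 5 of 12 genes were tested and 2 rose. These were Tifab, an adaptor-like protein (0.55, SE 0.0737), and Tgfbi, an extracellular matrix protein induced by TGF-beta (0.65, SE 0.0867), each with an adjusted p of 0.00818 in limma. Near Cxcl16, 28 of 46 genes were tested, 0 rose and 1 fell. That gene was Clec10a, a galactose-type lectin of macrophages and dendritic cells, which went from 9.27 ± 1.18 TPM in WT to 4.55 ± 0.629 TPM in KO (SD, n = 4; limma adjusted p = 0.00503). Neither Cxcl14 nor Cxcl16 itself passed the test. The shares over all genes tested were 4.4% for rises and 1.21% for falls, so nothing is read from these counts of neighbours.

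Among the genes whose pattern over the 8 libraries was most like that of Cxcl2 were Lyz2, Clec10a, F7 and Ffar2, chosen by the smallest root mean square difference of log2(TPM + 1) minus each gene's own WT mean among 11148 genes with a mean over 2 TPM. The differences were 0.446 for Lyz2, 0.528 for Clec10a, 0.53 for F7 and 0.557 for Ffar2. Genes lower in KO were favoured by this choice, so nothing is read from their direction, separation or calls. Lyz2, lysozyme, measured 4309.37, 3888.67, 3726.19 and 4047.94 TPM in WT and 1950.39, 1809.32, 2067.55 and 1880.14 TPM in KO. Every KO library was below every WT library. It had means of 3993 ± 248 and 1927 ± 110 TPM (SD, n = 4), and its position in this list is one of pattern only. The log2 fold changes of these 4 genes ran from -1.05 (Lyz2) to -0.88 (Ffar2), all smaller in size than the -1.55 of Cxcl2. Ffar2 was the only one of them not called without WT replicates 3 and 4 (limma adjusted p = 0.0695), and Cxcl1 was not among the candidates because its mean was under 2 TPM. Of the 4, only Clec10a starts within 500 kb of a member.

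The receptors of these ligands were mostly too low to be tested. Of 10 CXC and atypical chemokine receptors, 2 were tested and both rose, beside 4.4% of all genes tested. Cxcr4, the receptor of Cxcl12, measured 27.66, 25.54, 29.72 and 25.48 TPM in WT and 35.19, 33.64, 35.56 and 36.16 TPM in KO. The groups did not overlap, and the difference was 0.37 (SE 0.058; adjusted p = 0.0138 in limma). Without KO replicate 4 the adjusted p was 0.0582. Cxcr3, the receptor of Cxcl9 and Cxcl10, measured 0.35, 0.56, 0.39 and 0.45 TPM in WT and 1.19, 1.26, 1.28 and 1.25 TPM in KO. It entered the test through its KO libraries alone, and its difference was 0.65 (SE 0.0925; adjusted p = 0.00994 in limma). Without WT replicates 3 and 4 its adjusted p was 0.0522. Cxcr2, the receptor of Cxcl1 and Cxcl2, was at means of 0.09 TPM in WT and 0.13 TPM in KO and was not tested.

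Cxcl12, the ligand of Cxcr4 and a product of marrow stroma, measured 226.74, 223.79, 264.84 and 214.18 TPM in WT and 209.58, 212.61, 290.17 and 216.98 TPM in KO. Its difference was -0.01 (SE 0.111, limma adjusted p = 0.979), and replicate 3 was highest in both groups. Cxcl11, Cxcl13, Cxcl15 and Cxcl17 were at most at 0.04 TPM in any library.

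Among 22 genes that carry NF-kappaB signals to chemokine genes, all were tested with limma and 0 were called, while 6 had an unadjusted p under 0.05, 2 of them higher and 4 lower in KO. Over all genes tested 5.61% were called, and 15.9% were higher and 6.42% lower in KO at that unadjusted p. The median log2 fold change of the 22 genes was -0.00388, against 0.03 over all genes. By the mean over all 8 libraries the most abundant were Irak1, a kinase below the Toll-like and interleukin-1 receptors, at 66.0 ± 4.30 TPM in WT and 65.6 ± 2.39 TPM in KO, and Tnip1, an A20-binding inhibitor, at 58.9 ± 6.35 and 60.8 ± 1.94 TPM (SD, n = 4). The subunits Rela and Nfkb1 had adjusted p-values of 0.834 and 0.860 in limma. Tnfaip3 (A20, a feedback inhibitor and NF-kappaB target) was looked at after its values were seen. It was at 22.0 ± 3.46 TPM in WT and 15.7 ± 1.40 TPM in KO, with groups that did not overlap and a difference of -0.45 (SE 0.111; adjusted p = 0.052 in limma). The adjusted p of Tnfaip3 was 0.0293 to 0.0391 under the 3 other scalings of TPM, 0.0463 with a robust trend, 0.0473 without WT replicate 3 and 0.0246 without WT replicates 3 and 4.

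Of 12 genes of chemokine mRNA decay and the p38 pathway that controls it, 1 rose, 0 fell and 11 did not pass. The shares over all genes tested were 4.4% for rises and 1.21% for falls. Dusp1, the phosphatase that switches off p38, went from 27.4 ± 1.80 to 34.0 ± 1.73 TPM (SD, n = 4), a log2 fold change of 0.30 (limma adjusted p = 0.0285). Its adjusted p was 0.0609 to 0.0885 without WT replicate 4 or any single KO library, and 0.0714 without WT replicates 3 and 4. Zfp36, the best known ATTTA-binding decay factor, was at 26.0 ± 3.47 and 27.0 ± 1.11 TPM (limma adjusted p = 0.748). Hnrnpd (AUF1), the most abundant gene of this list, was at 131.5 ± 11.7 and 120.1 ± 1.94 TPM and did not pass.

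Of 14 genes of interferon signalling to Cxcl9 and Cxcl10, all were tested with limma, 0 were called and 1 had an unadjusted p under 0.05. Over all genes tested 5.61% were called, and 15.9% were higher and 6.42% lower in KO at that unadjusted p. Irf7, an interferon-induced factor, was at 116 ± 12.8 TPM in WT and 119 ± 27.2 TPM in KO (SD, n = 4). KO replicate 3 was the highest library for Irf7, as it was for Cxcl9 and Cxcl12.

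Of 10 genes for the shedding, trimming and storage of CXC chemokines, most of them proteases, 8 were tested, 1 rose, 0 fell and 7 did not pass. Among all genes tested, 4.4% rose and 1.21% fell. Ctsb, a lysosomal cysteine protease, went from 7239 ± 388 to 8375 ± 266 TPM (SD, n = 4), a log2 fold change of 0.21 (limma adjusted p = 0.0423). The adjusted p of Ctsb was 0.0704 after median-of-ratios scaling, 0.109 without WT replicates 3 and 4, and 0.077 to 0.123 without any single library other than WT replicate 1. Mmp12, which cleaves Cxcr2 ligands, did not pass at 464 ± 82.1 and 640 ± 52.0 TPM (limma adjusted p = 0.0556), and passed at 0.048 with median-of-ratios scaling, 0.0434 after rescaling to protein-coding genes and 0.024 without WT replicate 1. Ctsl, the next most abundant, was at 2551 ± 147 and 2367 ± 214 TPM. Adam10 and Adam17, which release Cxcl16 from the membrane, had adjusted p-values of 0.297 and 0.252 in limma.

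**Figure D4:**
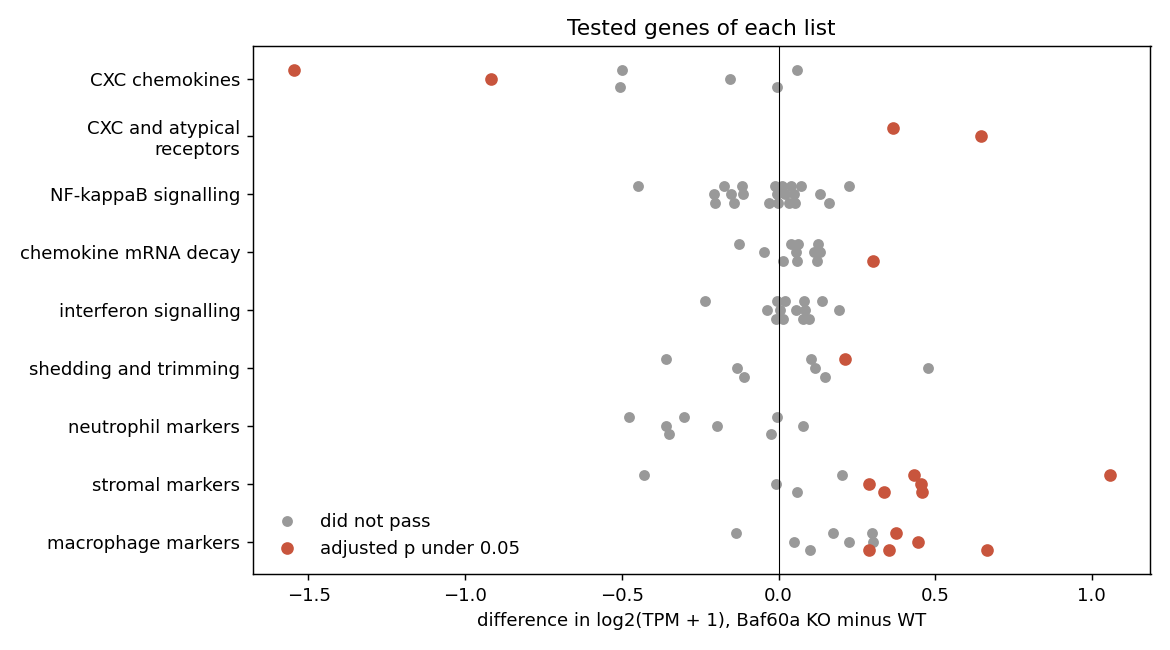
Difference in log2(TPM + 1), Baf60a KO minus WT, of every tested gene in the lists named on the vertical axis, with red for adjusted p under 0.05 and grey for genes that did not pass, and a small vertical offset to separate points. The calls below 0 are Cxcl2 and Cxcl1 in the top row, and the 22 NF-kappaB genes, all grey, lie on both sides of 0.

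Markers of other cells that could carry these chemokines moved with the groups in part. In bulk RNA, fewer cells of a type and less RNA per cell cannot be told apart. As a background for the marker counts, 4.4% of all genes tested rose, and 1.32% without WT replicates 3 and 4. All 12 macrophage markers were tested and 5 rose (Cd68, Itgam, C1qa, C1qb and C1qc). The summed level of the 12 macrophage markers was 3305 to 3953 TPM in WT and 4314 to 4428 TPM in KO, so markers of the label were present. The sum of the stromal list, given below, was larger in each group, so RNA of stromal markers was also abundant in these libraries. Without WT replicates 3 and 4, Cd68, Itgam and C1qc did not pass (limma adjusted p 0.0886, 0.0757 and 0.0522), nor did Cd68 after median-of-ratios scaling (0.0507) or quantile normalization (0.0776). Of 12 stromal markers 10 were tested and 6 rose (Col1a1, Col3a1, Pdgfrb, Thy1, Postn and Acta2). The other 4 did not pass, with differences of 0.20 for Col1a2, 0.06 for Pdgfra, -0.01 for Cxcl12 and -0.43 for Dcn. The sum of the 12, Cxcl12 included, was 4949 to 5409 TPM in WT and 6120 to 6437 TPM in KO. Its largest parts were Col1a2, Col1a1 and Acta2, at WT means of 1554, 1534 and 1241 TPM. Of 8 endothelial markers 7 were tested and 2 rose (Pecam1 and Emcn), with sums of 39.5 to 49.5 TPM in WT and 53.3 to 69.6 TPM in KO. Col3a1 and Pecam1 did not pass without WT replicates 3 and 4 (limma adjusted p 0.0714 and 0.0636). The part of these shifts in the lower Cxcl2 and Cxcl1 was not tested.

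Neutrophils make CXC chemokines and answer to them. As a background, 5.61% of all genes tested were called. In limma, 6.42% were lower and 15.9% higher in KO at an unadjusted p under 0.05. Of 13 neutrophil markers 8 were tested with limma and 0 were called, while 2 had an unadjusted p under 0.05, both lower in KO. Their sum was 209.9 to 305 TPM in WT and 159 to 253 TPM in KO, ranges that overlap. Most of it was S100a9, at 133 ± 24.6 TPM in WT and 116 ± 20.8 TPM in KO, and S100a8, at 58.6 ± 11.98 and 58.7 ± 12.9 TPM (SD, n = 4). The groups did not overlap, with KO lower, for the granule genes Ngp, at 28.8 ± 4.41 and 20.5 ± 3.73 TPM (SD, n = 4; limma adjusted p = 0.0934), and Mmp8, at 2.44 ± 0.299 and 1.68 ± 0.248 TPM (limma adjusted p = 0.0757). Mmp8 passed at 0.047 after median-of-ratios scaling. Separate groups with KO lower were found in 3.96% of all genes tested. The other tested markers differed by -0.35 (Ltf), -0.30 (Camp), -0.19 (S100a9), -0.02 (Csf3r), -0.01 (S100a8) and 0.08 (Prtn3). Ngp and Mmp8 moved in the direction of Cxcl2 and Cxcl1, and their part in that difference was not tested. Ly6g and Elane, which mark mature and immature neutrophils, were at 0.05 to 0.22 and 0.14 to 0.65 TPM in WT and at 0 to 1.15 and 0.1 to 0.77 TPM in KO. WT replicate 2, the highest library for Cxcl2 and Cxcl1, was also the highest for S100a9, at 167 TPM, and for S100a8, at 76.1 TPM. The part of neutrophils in that library's Cxcl2 was not tested.

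For Pf4 and Ppbp the cells of reference are megakaryocytes and platelets. As a background, 5.61% of all genes tested were called. In limma, 6.42% were lower and 15.9% higher in KO at an unadjusted p under 0.05. Without Pf4 and Ppbp the list has 11 markers, of which 4 were tested with limma and 0 called, with 1 at an unadjusted p under 0.05. Their sum was 76.3 to 91.4 TPM in WT and 72.1 to 80.8 TPM in KO, mostly Itgb3, an integrin that macrophages and osteoclasts also express, at 59.1 to 71.8 and 56.4 to 62.2 TPM. Itga2b, the integrin partner of Itgb3 on platelets, was at 2.45 ± 0.903 and 1.85 ± 0.217 TPM (SD, n = 4). Vwf, which endothelial cells also make, was at 9.22 to 13.6 TPM in WT and 7.47 to 10.03 TPM in KO, and Treml1, a receptor of platelet granules, at 3.17 to 3.86 and 3.30 to 4.52 TPM. The platelet glycoproteins Gp1ba, Gp5 and Gp6 were under 1 TPM in every library, and Gp9, Gp1bb and Clec1b reached at most 1.31, 1.11 and 1.25 TPM. Pf4 was at 1002.44 TPM or above in every library, and the part of platelet-lineage cells in its level was not tested. All 8 lymphocyte markers were under 1 TPM in every library. Of 6 dendritic cell markers, 1 was tested and 0 were called in limma, with 0 at an unadjusted p under 0.05.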

How the data were processed

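Total RNA was made into libraries with the NEBNext Ultra RNA kit and sequenced as paired reads, per the labels' protocols. Salmon 1.2.0, bcl2fastq and build mm10 are named, per the submitters' processing notes. Not given in the sources used here are the annotation, Salmon's options and the use of strand. The authors deposited 1 TPM value per gene and library, and each library summed to 1000000 within rounding, so depth is unknown and no counting interval can be given. A rise in some transcripts lowers the TPM of all others.

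Groups and replicate numbers came from the sample titles. Of 55421 identifiers, 55154 matched a symbol in GENCODE M21, which has the assembly of mm10, and no columns were identical. The 13933 genes above 1 TPM in 4 or more libraries were fitted as log2(TPM + 1) by limma 3.58.1 (R 4.3.3). The model held the group alone and a variance trend, and p-values were adjusted over all 13933 genes by Benjamini and Hochberg. Fold changes are Baf60a KO minus WT. The steps were tested on simulated data.

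The members and 13 other gene lists were chosen with earlier results of these data known. The text names all members, Smarcd1, Cxcl12, Cxcr2, Cxcr4, the called genes of each list (with fewer than 2, the most abundant others too), called neighbours within 500 kb, and the 5 genes most like Cxcl2; some of these are not reported here. Genes named outside this rule were chosen after their values were seen. They are Cxcr3 as a ligand's receptor, Rela, Nfkb1, Tnfaip3, Zfp36, Adam10, Adam17, Mmp12, Ngp, Mmp8, the uncalled and overlapping neighbours, and the markers given as values. Alternatives covered the pseudocount, the filter, the variance model, scaling, a replicate block and left-out libraries. Promoters came from RefSeq (GRCm38.p6), 3′ UTRs from GENCODE M21, and transcripts were aligned with BLAST 2.17.0, counting matches of at least 100 bases.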

Additional observations from a re-analysis of the deposited data

Results flagged for a closer look

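Dixon's test was applied to 48 groups of 4 libraries, for the members and other genes that include Smarcd1, Cxcl12, Cxcr2, Cxcr3, Cxcr4, Lyz2, Clec10a and Dusp1. Not every gene shown by library was checked, and Areg was not. In 4 of the groups a library stood apart from the rest, and chance flags about 1 group in 20. Cxcl2 was at 11.26 TPM in WT replicate 2, against 6.33 to 7.15 TPM in the other WT libraries. Pf4 was at 1002.44 TPM in KO replicate 3, against 1355.53 to 1398.39 TPM in the other KO libraries. Cxcl12 was at 290.17 TPM in that same library, against 209.58 to 216.98 TPM. Cxcl10 was at 2.07 TPM in KO replicate 4, against 1.62 to 1.67 TPM.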

How the results depend on the processing

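Cxcl2 kept its direction and its call in every alternative tried, with log2 fold changes from -1.91 (pseudocount 0.1) to -1.385 (without WT replicate 2). The number of members called was 2 under every alternative that kept all libraries and without WT replicates 3 and 4, and 1 to 3 when single libraries were left out. It was 1 without KO replicate 1, 2 or 3, where Cxcl1 was lost, and 3 without WT replicate 3, where Pf4 was added. No member rose in any of them. Over all genes tested the count of 782 calls became 364 with no filter on low values, 209 with the replicate block, 353 without WT replicates 3 and 4, and 160 to 682 when single libraries were left out (160 without KO replicate 4). The share of calls that rose was 78.4%, and 56.1% after median-of-ratios scaling, 63.4% after quantile normalization, 65.1% with TPM rescaled to protein-coding genes, and 52.1% when WT replicates 3 and 4 were left out. The causes were not tested.

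Same-numbered libraries deviated together with correlations of -0.113 to 0.0124 over 13933 genes, and no library correlated best with its own number. Over all genes these values show no pairing by number. A pairing in single genes or in the making of the libraries was not tested. With the number as a block, the 2 members called were Cxcl2 (adjusted p = 0.0256 in limma) and Pf4 (0.0204), Cxcl1 was at 0.0696, and Cxcr3 at 0.0586.

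Calls of several single genes in the other lists were lost when 1 library was left out. TPM holds no depth, and members near or under 1 TPM (Cxcl1, Cxcl3, Cxcl5 and Cxcl9) rest on few reads of unknown number.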

Other observations

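Areg, which encodes the epidermal growth factor receptor ligand amphiregulin and starts 235728 bases beyond the start of Cxcl2, was chosen after its values were seen. It measured 0.31, 0.47, 0.28 and 0.19 TPM in WT and 0.08, 0.07, 0 and 0 TPM in KO. The groups did not overlap, but all 8 values were below the level for testing and no fold is given.

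Apart from Cxcl1, Cxcl2 and Cxcl3, 20 genes with the promoter word GGGAATTTCC were matched in the table. Of these 11 were tested with limma and 0 were called, with 0 at an unadjusted p under 0.05, and their median log2 fold change was 0.07 against 0.03 over all genes. Over all genes tested 5.61% were called, and 15.9% were higher and 6.42% lower in KO at that unadjusted p. Nfkbia, the NF-kappaB inhibitor and an NF-kappaB target itself, was at 44.8 ± 4.33 TPM in WT and 40.2 ± 2.65 TPM in KO (SD, n = 4; limma adjusted p = 0.283).

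KO replicate 3 was the highest KO library for 4 members and the lowest for 3. It had the highest Cxcl9 (1.95 TPM, against 0.38 to 0.69 in the other KO libraries) and Irf7 (158 TPM, against 95.5 to 112), and the lowest Pf4 and Cxcl1 of the 4.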
